A study of Rattus norvegicus with 6 samples.

Results

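The metabotropic glutamate receptor genes *Grm2*, *Grm3*, *Grm4*, *Grm5*, *Grm7* and *Grm8* and the vesicular glutamate transporter genes *Slc17a6*, *Slc17a7* and *Slc17a8* were examined in the RNA-seq data of rat spinal cord. They were chosen by gene symbol, and 8 of the 9 names were matched to 1 row each of the 22050 genes in the deposited table, while *Grm4* was not analysed here. The libraries came from male Sprague–Dawley rats, stated to be 8 to 10 weeks old, with 3 libraries labelled as sham rats and 3 as rats with neuropathic pain induced by spared nerve injury (SNI-NP rats). In the SNI model branches of the sciatic nerve are injured while the sural branch is left intact. The time after surgery and the segment or side of the cord used for sequencing are not given in the sources used here. The comparison asks which RNA levels differ between the spinal cords of both groups. Each library was taken as 1 replicate, as labelled, the labels do not say whether each came from 1 animal, and p-values measure the spread between these libraries only.

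Glutamate is the main excitatory transmitter of the dorsal horn. The vesicular glutamate transporters (VGLUTs) fill synaptic vesicles with it, driven by the proton pump of the vesicle, and thereby mark the neurons that release it. The metabotropic receptors are G protein-coupled receptors that tune this transmission. Group I receptors such as *Grm5* act through Gq proteins and phospholipase C and mostly raise excitability, whereas group II (*Grm2*, *Grm3*) and group III receptors (*Grm4*, *Grm6*, *Grm7*, *Grm8*) act through Gi/o proteins and mostly reduce transmitter release. In the adult spinal cord *Slc17a6* is known as the transporter of dorsal horn excitatory interneurons and of many nociceptive afferents, and *Slc17a7* as that of large myelinated afferents, whose cell bodies lie in the dorsal root ganglia.

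The libraries held between 16670760 and 18151156 estimated counts, and the upper limit that 0 counts leave was 0.165 to 0.18 CPM (counts divided by the TMM-scaled library size). These limits cover counting error only. Marker levels differed widely among the libraries. The summed level of 6 dorsal root ganglion neuron markers ran from 360 to 833 CPM in sham rats and from 75.3 to 1133 CPM in SNI-NP rats, with SNI-NP replicate 1 at the bottom. That of 4 inhibitory neuron markers of the cord ran from 114 to 355 CPM in sham rats, highest in replicate 1, and from 128 to 206 CPM in SNI-NP rats. Peripheral myelin markers summed to 61766 to 74979 CPM in sham and 71260 to 95118 CPM in SNI-NP libraries. Of these markers, 4 of 4 genes had a log2 fold change above 0 (median 0.28). Their sums exceeded those of the oligodendrocyte markers (30040 to 40884 CPM) in all 6 libraries, although the labelled tissue is spinal cord. Of 3 cortical neuron markers, 1 was at 0 in all libraries and the sum was at most 2.58 CPM. Erythroid markers were higher in every SNI-NP library (15.8 to 31.8 CPM) than in every sham library (7.66 to 13.8 CPM). Skeletal muscle markers spread most, from 10.9 to 65.7 CPM in sham and from 9.11 to 385 CPM in SNI-NP libraries, with 4 of 4 genes at a log2 fold change above 0 (median 2.23).

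The levels were first compared per gene length, as deposited FPKM (read counts divided by gene length and library size). *Slc17a7* was the most abundant of the 8 genes, at 18.2 ± 9.48 FPKM (SD, n = 6), followed by *Slc17a6* at 8.82 ± 2.93 FPKM. Their ranges overlapped, and *Slc17a7* was above *Slc17a6* in 4 of the 6 libraries. The receptors followed, with *Grm7* at 3.85 ± 0.881 and *Grm3* at 3.51 ± 1.73 FPKM, whose ranges also overlapped. Next came *Grm8* at 1.07 ± 0.399 and *Grm5* at 0.93 ± 0.659 FPKM, again without separation. *Grm2* (0.172 ± 0.101 FPKM) and *Slc17a8* (0.0817 ± 0.0808 FPKM) were the lowest. In this order, *Slc17a6* lay above *Grm7* and *Grm3* above *Grm8* in every library with no overlap of the ranges, and no other neighbours were separated. The 6 FPKM values are shown for each gene in the plot of levels per length.

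**Figure D1:**
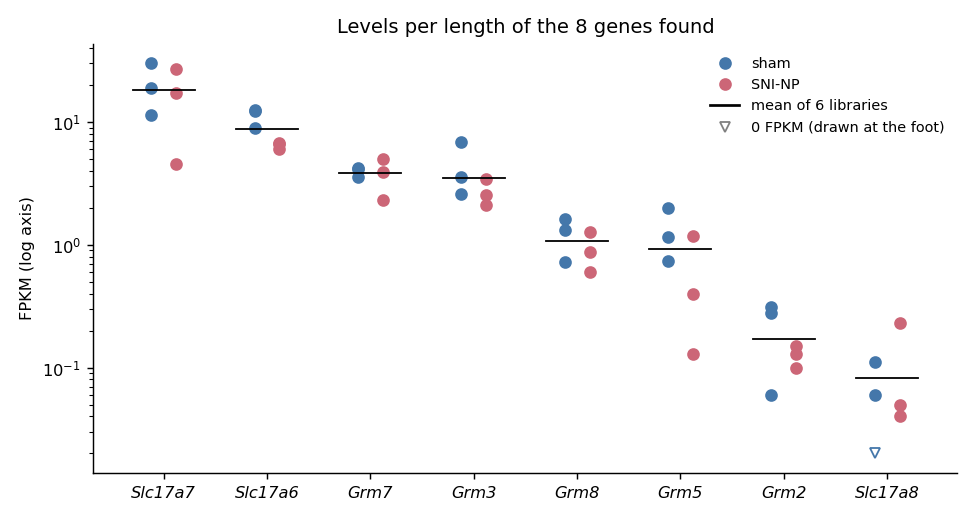
FPKM (log axis) of the 8 genes in the 3 sham and 3 SNI-NP libraries, ordered by the mean over 6 libraries (horizontal lines). *Slc17a7* and *Slc17a6* lie highest, at means of 18.2 and 8.82 FPKM, and the open triangle marks the sham library in which *Slc17a8* is listed at 0.

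The balance between both main transporters was not stable among libraries. *Slc17a6* made up 51.9%, 31.9% and 29.2% of the summed VGLUT FPKM in sham replicates 1, 2 and 3, and 56.7%, 19.7% and 27.8% in SNI-NP replicates 1, 2 and 3. It was thus the larger part in replicate 1 of each group, the pair of libraries with the lowest ganglion marker levels, and the groups overlapped fully. The ratio of *Slc17a7* to *Slc17a6* FPKM ran from 0.756 in SNI-NP replicate 1 to 4.05 in SNI-NP replicate 2. Among the 5 receptors found, *Grm3* and *Grm7* together supplied most of the FPKM. The share of *Grm7* was 28.1%, 46.1% and 39.6% in the sham libraries and 28.1%, 62.7% and 49.6% in the SNI-NP libraries, so that it too was lowest in replicate 1 of either group.

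*Slc17a6* (ENSRNOG00000016147), which encodes VGLUT2, was lower in SNI-NP rats. Its level was 50.1, 34.8 and 49.999 CPM in sham replicates 1, 2 and 3, from 834, 618 and 859 counts. In SNI-NP replicates 1, 2 and 3 it was 25.3, 26.8 and 27.0 CPM, from 440, 483 and 466 counts. Every SNI-NP value was under the lowest sham value, and the SNI-NP values were close to one another while sham replicate 2 lay below the other sham libraries. The SNI-NP mean of 26.4 ± 0.935 CPM was 1.70-fold lower than the sham mean of 45.0 ± 8.79 CPM (SD, n = 3 each). The log2 fold change was -0.77 with a standard error (SE) of 0.16 (edgeR quasi-likelihood test, unadjusted p = 0.00164). After Benjamini-Hochberg adjustment over the 14426 genes tested, the edgeR p was 0.307, so *Slc17a6* did not pass the threshold of 0.05. No gene passed it by edgeR (0%), and 10.8% of all genes tested had an unadjusted p under 0.05, 5.94% being lower and 4.91% higher in SNI-NP rats. Of these genes 45.2% were higher, against 64.9% when the fit carried offsets for transcript length. With DESeq2, the tool named in the study's methods, the adjusted p of *Slc17a6* was 0.00565, and 1.48% of the genes with an adjusted p passed. A full separation of the groups with SNI-NP lower was found for 8.14% of all genes tested. For a single gene, the smallest two-sided p of an exact permutation test on 3 and 3 libraries is 0.1.

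The unadjusted call of *Slc17a6* did not depend on 1 library. When each of the 6 libraries was left out in turn, its log2 fold change lay between -0.92 and -0.70, and the unadjusted edgeR p was at most 0.00593 in all 6 fits. Of the genes tested, 2.16% were lower in SNI-NP rats with an unadjusted p under 0.05 in all 6 of these fits. In bulk tissue, fewer cells that express a gene and less RNA per cell cannot be told apart. Of 6 general neuron markers, 2 (*Snap25* and *Elavl4*) were lower in SNI-NP rats at an unadjusted p under 0.05 and 0 were higher. Of all genes tested, 5.94% were lower and 4.91% higher at this threshold. The summed level of these 6 markers overlapped between the groups (2701 to 3897 CPM in sham, 1296 to 3404 CPM in SNI-NP rats), and 0 of them was at 0 in any library. The median log2 fold change was -0.39 over these 6 markers, -0.54 over 4 inhibitory neuron markers, -0.65 over 3 motor neuron markers tested and -0.35 over 6 astrocyte markers. Of the last 3 lists, 0 genes had a value above 0. Over 4 peripheral myelin markers the median was 0.28, with 4 of 4 genes above 0. It was 0.06 over 6 dorsal root ganglion neuron markers, with 6 of 6 above 0. For 3 excitatory dorsal horn neuron markers it was -0.11 (1 above 0), and for 6 oligodendrocyte markers -0.31 (2 above 0). The part of these lists in the lower level of *Slc17a6* was not tested, apart from fits with the ganglion or the inhibitory neuron markers as a covariate. Of 3 excitatory dorsal horn neuron markers analysed (*Lmx1b*, *Tlx3* and *Lbx1*), 0 passed an unadjusted p of 0.05, with sums of 6.08 to 10.3 CPM in sham and 6.33 to 14.2 CPM in SNI-NP rats. With the summed ganglion markers as a covariate, a setting added after seeing the data, the log2 fold change of *Slc17a6* was -0.77 (edgeR unadjusted p = 0.00239, adjusted p = 0.0786). With the summed inhibitory neuron markers as a covariate, also added later, it was -0.62 (edgeR unadjusted p = 0.00467, adjusted p = 0.508).

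*Slc17a7* (ENSRNOG00000020650), which encodes VGLUT1, varied more between libraries of the same group than between the groups. It was at 33.3, 53.1 and 86.4 CPM in sham replicates 1, 2 and 3 and at 13.7, 77.9 and 50.3 CPM in SNI-NP replicates 1, 2 and 3. The lowest value was that of SNI-NP replicate 1, and the groups overlapped. Its log2 fold change was -0.28 (SE 0.59, edgeR adjusted p = 0.877). The sign turned without SNI-NP replicate 1 (0.15) and without sham replicate 3 (0.11), so the data give *Slc17a7* no direction. *Slc17a8* (ENSRNOG00000007581), which encodes VGLUT3, had counts of 0, 3 and 6 in sham and 3, 13 and 2 in SNI-NP libraries. The highest of these levels was 0.722 CPM, in SNI-NP replicate 2, and the gene was removed by the filter on low counts before the test.

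**Figure D2:**
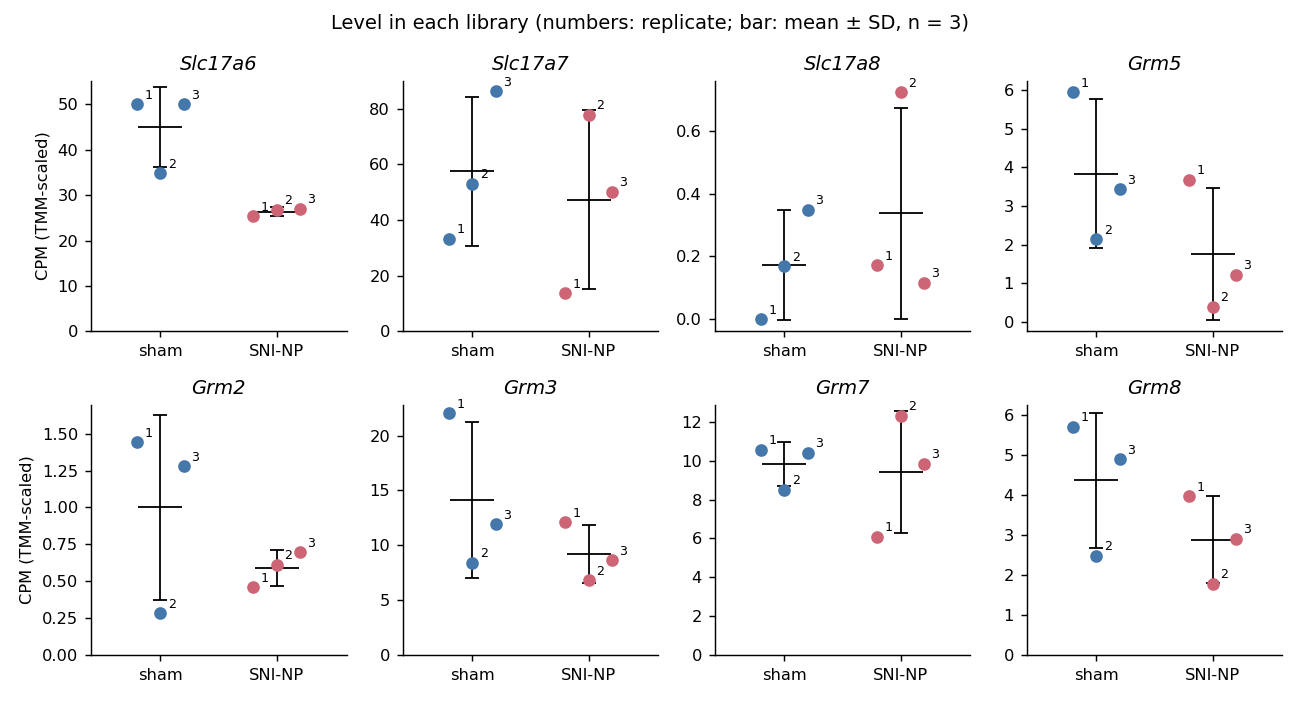
CPM of each gene in the 3 sham and 3 SNI-NP libraries, with replicate numbers beside the points and the mean ± SD (n = 3) as black bars. For *Slc17a6* the SNI-NP points sit between 25.3 and 27.0 CPM, under every sham point, and for the other genes the groups overlap.

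Since the 2 transporters that carry nearly all VGLUT RNA differed in their pattern, the bases before their RefSeq starts are given for reference (assembly GRCr8, not the assembly the reads were mapped to). The deposited data hold no measurement on these sequences. Both lie on the plus strand of chromosome 1, and the capitals mark matches to the GC box GGGCGG on either strand.
*Slc17a7*, chr1:104785955-104786204: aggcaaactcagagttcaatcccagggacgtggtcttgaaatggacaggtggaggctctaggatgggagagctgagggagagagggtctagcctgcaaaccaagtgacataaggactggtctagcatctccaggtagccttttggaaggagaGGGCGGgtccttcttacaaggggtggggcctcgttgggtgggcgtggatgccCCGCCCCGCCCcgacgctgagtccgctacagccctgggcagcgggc
*Slc17a6*, chr1:110348197-110348446: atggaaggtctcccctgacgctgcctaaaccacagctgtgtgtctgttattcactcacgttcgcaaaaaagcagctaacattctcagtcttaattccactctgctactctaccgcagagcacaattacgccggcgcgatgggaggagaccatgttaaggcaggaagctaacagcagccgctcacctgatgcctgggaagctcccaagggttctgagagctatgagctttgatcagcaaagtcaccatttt
The window of *Slc17a7* held 3 GC box matches, of which the last pair shares a base, and that of *Slc17a6* held 0. Among 33469 RefSeq windows of 250 bases, 30.5% held at least 1 match. Neither window held the cAMP response element TGACGTCA (1.59% of all windows), the E box CACGTG (5.59%) or TATAAA (12.9%), each searched on both strands. The GC content was 61.2% for *Slc17a7* and 50.8% for *Slc17a6*, with 10 and 9 CG dinucleotides against a median of 5 over all windows. Entries were also found for *Grm5*, *Grm7*, *Grm8* and *Slc17a8*, and not for *Grm2*, *Grm3* and *Grm4*.

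*Grm5* (ENSRNOG00000016429), the group I receptor whose Gq signalling is known for its part in central sensitization, was at 5.94, 2.14 and 3.43 CPM in sham replicates 1, 2 and 3. In SNI-NP replicates 1, 2 and 3 it was at 3.68, 0.389 and 1.22 CPM, the last pair being the lowest of the 6 libraries. These levels came from 99, 38 and 59 counts in sham and only 64, 7 and 21 counts in SNI-NP replicates 1, 2 and 3. SNI-NP replicate 1 lay within the sham range, so the groups overlapped. The means were 3.84 ± 1.93 and 1.76 ± 1.71 CPM (SD, n = 3 each). The log2 fold change was -1.12 with an SE of 0.73, and the edgeR adjusted p was 0.575. This value rested on single libraries, since it was -2.25 without SNI-NP replicate 1 (edgeR unadjusted p = 0.00914) and -0.64 when SNI-NP replicate 2 was left out (unadjusted p = 0.321). It was -1.42 in the fit with the replicate number as a block (edgeR unadjusted p = 0.0137), although replicate numbers gave no pairing. With the ganglion marker covariate it was -1.85 (edgeR unadjusted p = 0.00313, adjusted p = 0.0884), and with the inhibitory neuron covariate -0.57.

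*Grm3* (ENSRNOG00000005519), a group II receptor found on neurons and on astrocytes, was at 22.0, 8.39 and 11.9 CPM in sham and 12.1, 6.83 and 8.64 CPM in SNI-NP replicates 1, 2 and 3. Sham replicate 1 stood above all other libraries, and the other 5 overlapped. The log2 fold change was -0.62 (SE 0.38, edgeR adjusted p = 0.557) and only -0.16 without sham replicate 1. It reached an unadjusted edgeR p of 0.0366 without sham replicate 2 (-0.89). In the fit with the replicate block that p was 0.0316 (-0.55), although replicate numbers gave no pairing. *Grm2* (ENSRNOG00000013171), the other group II receptor and known as a presynaptic autoreceptor, had 24, 5 and 22 counts in sham and 8, 11 and 12 counts in SNI-NP libraries. At 0.282 to 1.44 CPM in sham and 0.46 to 0.696 CPM in SNI-NP rats its groups overlapped, and its log2 fold change was -0.75 (SE 0.61, edgeR adjusted p = 0.652). Without sham replicate 2, its lowest library, the value was -1.19 (edgeR unadjusted p = 0.0303), and with the inhibitory neuron covariate it was 0.01.

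*Grm7* (ENSRNOG00000005662), a group III receptor of the presynaptic active zone, did not differ detectably between the groups. It was at 10.6, 8.51 and 10.4 CPM in sham and at 6.10, 12.3 and 9.85 CPM in SNI-NP replicates 1, 2 and 3. The SNI-NP rats held both the lowest and the highest value. The log2 fold change was -0.06 (SE 0.27, edgeR adjusted p = 0.95), and leaving out 1 library gave from -0.30 (SNI-NP replicate 2 left out) to 0.17 (SNI-NP replicate 1 left out). The row *AABR07061755.1*, described in the deposited table as a predicted isoform of the same receptor in another rodent, had 7, 4 and 7 counts in sham and 1, 17 and 10 in SNI-NP libraries and was likewise lowest in SNI-NP replicate 1 and highest in SNI-NP replicate 2. Whether reads were divided between both rows was not tested.

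*Grm8* (ENSRNOG00000021468), another presynaptic group III receptor, was at 5.70, 2.48 and 4.89 CPM in sham and 3.97, 1.78 and 2.90 CPM in SNI-NP replicates 1, 2 and 3. The groups overlapped because sham replicate 2 lay low. The log2 fold change was -0.60 with an SE of 0.41 (edgeR adjusted p = 0.595), and -0.88 without sham replicate 2 (unadjusted p = 0.0472). On log2 of the deposited FPKM plus 0.1 it was smaller, at -0.38 (limma unadjusted p = 0.346). The gene length behind these FPKM values differed between the groups, as given under the other observations. *Grm6*, the group III receptor best known from the retina, had 0 to 6 counts in a library and was removed by the filter on low counts.

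Of the 7 genes that passed the filter, 0 had an edgeR adjusted p under 0.05 and 1, *Slc17a6*, had an unadjusted p under 0.05. With 10.8% of all genes tested under that threshold, this share is near the background. All 7 had a log2 fold change below 0, against 49.1% of all genes tested, and their median was -0.62 against 0.01 for all genes. The related gene lists described below leaned the same way, so this direction was not particular to the 7 genes. Below 0 were 12 of 18 genes of group I signalling and 15 of 19 of group II and III signalling. So were 11 of 12 genes of glutamate supply and clearance and 10 of 12 of other vesicular transport. The number of the 7 with an unadjusted edgeR p under 0.05 was 2 without SNI-NP replicate 1, where 13.1% of all genes tested passed. It was 4 (*Grm2*, *Grm3*, *Grm8* and *Slc17a6*) without sham replicate 2, against 14.6% of all genes. With the replicate block it was 3, against 9.14%, although replicate numbers gave no pairing. The plot of log2 fold changes shows that the bars of *Slc17a6* stay away from 0 under each setting drawn.

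**Figure D3:**
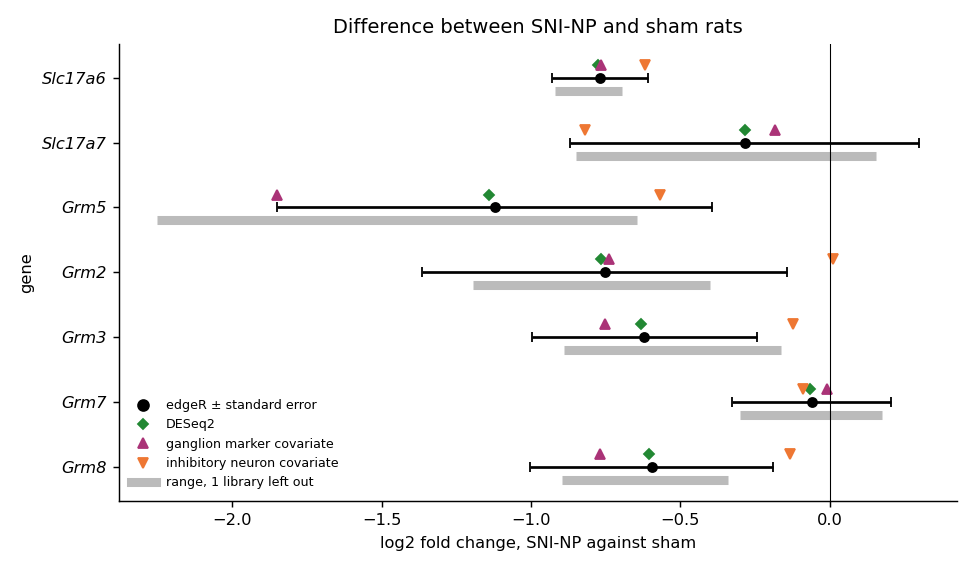
Log2 fold change of SNI-NP against sham rats for the 7 genes tested. Black points give the edgeR value ± standard error, green diamonds DESeq2, triangles the fits with a marker covariate and grey bars the range over the 6 fits that leave out 1 library. *Slc17a6* runs from -0.92 to -0.62 over these, whereas the grey bars of *Slc17a7* and *Grm7* cross 0.

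For the 7 genes tested the log2 CPM was compared with the log2 summed level of the ganglion markers and of the inhibitory neuron markers, giving 14 relations, of which 0 had an adjusted p under 0.05. Differences between relations were not tested. The groups were not separated in them, and within a group there were too few libraries to repeat them. *Slc17a7* moved with the ganglion markers (Pearson's r = 0.963, exact permutation p = 0.00972, Benjamini-Hochberg adjusted p = 0.0778, Spearman's rho = 0.886, exact p = 0.0333, adjusted p = 0.272). Without the 2 libraries farthest from the median, replicate 1 of both groups, r was 0.558, so this relation rests on them. *Grm7* had r = 0.853 with the ganglion markers (exact permutation p = 0.0514, adjusted p = 0.163, Spearman's rho = 0.657, exact p = 0.175, adjusted p = 0.306) and 0.966 without those 2 libraries.

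With the inhibitory neuron markers, r was above 0 for *Grm2*, *Grm3*, *Grm5*, *Grm8* and *Slc17a6* and below 0 for *Grm7* and *Slc17a7*. The astrocyte sums (691 to 1725 CPM in sham, 820 to 1197 CPM in SNI-NP libraries) and the motor neuron sums (15.8 to 38.3 and 17.3 to 18.4 CPM) ranked the 6 libraries in the same order as the inhibitory neuron sums, so these cell types cannot be told apart here. For *Grm3* r was 0.945 (exact permutation p = 0.0111, adjusted p = 0.0778, Spearman's rho = 0.771, exact p = 0.103, adjusted p = 0.272) and 0.838 without sham replicates 1 and 3, the libraries farthest from the median. For *Grm8* r was 0.911 (exact permutation p = 0.0222, adjusted p = 0.104, Spearman's rho = 0.829, exact p = 0.0583, adjusted p = 0.272) and 0.75 without them. *Grm2* had r = 0.788 (exact permutation p = 0.0833, adjusted p = 0.194, Spearman's rho = 0.771, exact p = 0.103, adjusted p = 0.272) and 0.104 without them, so its relation rests on those libraries. *Grm5* had r = 0.78 (exact permutation p = 0.0583, adjusted p = 0.163, Spearman's rho = 0.714, exact p = 0.136, adjusted p = 0.272) and 0.559 without them. *Slc17a6* had r = 0.208 with the ganglion markers and 0.687 with the inhibitory neuron markers (exact permutation p = 0.778 and 0.142, adjusted p = 0.899 and 0.283, Spearman's rho = 0.0286 and 0.429, exact p = 1 and 0.419, adjusted p = 1 and 0.587), and these values were -0.429 and -0.69 without the 2 farthest libraries. With the inhibitory neuron covariate the log2 fold changes of *Grm3* and *Grm8* were -0.12 and -0.13, and with the ganglion covariate that of *Slc17a7* was -0.18.

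**Figure D4:**
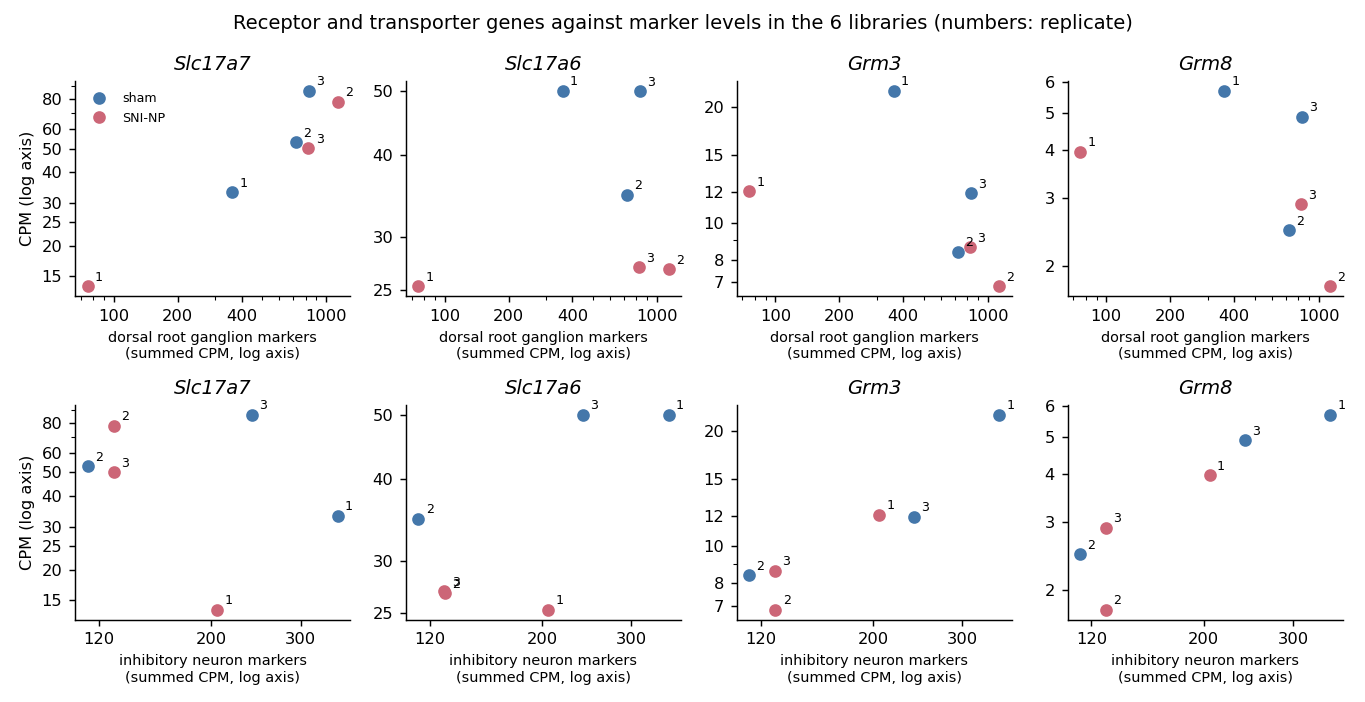
CPM of 4 genes (log axes) against the summed CPM of the 6 ganglion markers (top) and the 4 inhibitory neuron markers (bottom) in the 6 libraries, numbered by replicate. *Slc17a7* climbs with the ganglion markers (r = 0.963), and *Grm3* and *Grm8* with the inhibitory neuron markers (r = 0.945 and 0.911). The 3 SNI-NP points of *Slc17a6* lie between 25.3 and 27.0 CPM, and its 3 sham points between 34.8 and 50.1 CPM.

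Among all genes tested, those most like the leading transporter and the leading receptor were sought by Pearson correlation of log2 CPM over the 6 libraries. For *Slc17a7* these were *Rtn4rl2* (r = 0.997), *Tmod1*, *Celsr3*, *Vwa7* and *Slc4a11* (r = 0.988), and 210 genes had r above 0.95. *Tmod1*, which encodes an actin-capping tropomodulin, was at 23.1 CPM in SNI-NP replicate 1 and 83.3 CPM in sham replicate 3, the libraries in which *Slc17a7* was also lowest and highest. For *Grm7* the closest were *Vwa5b2* (r = 0.996), *Ttpal*, *Nars1*, *Phkg2* and *Serpinb1b* (r = 0.985), with 71 genes above 0.95. All of these genes share libraries, depth and tissue make-up with the pair, and 6 points do not set them apart from other genes.

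In the pathway around the receptors, 0 of 61 further genes tested passed the adjusted edgeR threshold, and 10 had an unadjusted p under 0.05, of which 7 were lower and 3 higher in SNI-NP rats. Among 18 genes of group I signalling, 4 were lower and 1 higher at that threshold, which is 27.8% of the list against 10.8% of all genes tested. The lower ones stand along the Gq route. *Gnaq*, which encodes the Gq alpha subunit, was at 27.3 ± 2.99 CPM in sham and 18.0 ± 2.62 CPM in the SNI-NP group (SD, n = 3 each), with no overlap (log2 fold change -0.60, SE 0.15, edgeR adjusted p = 0.348). Its unadjusted edgeR p was at most 0.0171 whichever library was left out. *Plcb4* and *Plcb1*, which encode the phospholipase C isoforms that Gq activates, had log2 fold changes of -0.95 (SE 0.31) and -0.93 (SE 0.34), each with an edgeR adjusted p of 0.436 and without overlap between the groups. With each library left out in turn, the unadjusted edgeR p of *Plcb4* was under 0.05 in 5 of 6 fits (at most 0.0529) and that of *Plcb1* in 3 of 6 (at most 0.0661). Both passed the adjusted threshold with the ganglion marker covariate, as did 1.39% of all genes tested, while with the inhibitory neuron covariate the unadjusted p was 0.0372 for *Plcb4* and 0.0569 for *Plcb1*. The log2 fold change of *Trpc5*, a cation channel opened downstream of Gq, was -1.39 (SE 0.51), and its groups overlapped. *Homer3*, which encodes a scaffold that binds group I receptors, was higher, at 24.7 ± 2.17 against 19.5 ± 1.41 CPM (log2 fold change 0.34, SE 0.12). *Trpc5* and *Homer3* each had an edgeR adjusted p of 0.436. The unadjusted edgeR p of each was under 0.05 in only 2 of the 6 fits without 1 library. The median of this list was -0.16.

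Of 19 genes of group II and III signalling, 1 was lower and 1 higher at an unadjusted edgeR p under 0.05, out of a background of 10.8%. *Folh1*, which encodes the peptidase that breaks down N-acetylaspartylglutamate, the peptide ligand of the *Grm3* receptor, was at 16.2 ± 1.07 CPM in sham and 9.69 ± 3.37 CPM in SNI-NP rats (log2 fold change -0.74, SE 0.26, edgeR adjusted p = 0.436). *Gnai2*, an inhibitory G protein subunit, had a log2 fold change of 0.23 (SE 0.10) and passed in none of the 6 fits without 1 library.

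Of 12 genes of glutamate supply and clearance, 1 was lower and 0 were higher at that threshold. This is 8.33% of the list, against 10.8% of all genes tested. *Slc1a2*, the main glutamate uptake transporter of astrocytes, had a log2 fold change of -1.08 (SE 0.39, edgeR adjusted p = 0.436), and the groups overlapped. *Slc7a11*, the cystine and glutamate exchanger, came next by p in this list, at 28.9 ± 7.58 CPM in sham and 17.2 ± 9.69 CPM in SNI-NP libraries with overlap (-0.75, SE 0.40, edgeR adjusted p = 0.511). Among the 12 tested genes of other vesicular transport, *Atp6v1a*, a subunit of the vesicular proton pump, was lower (-0.34, SE 0.13) and *Slc17a9*, the vesicular nucleotide transporter, was higher (0.92, SE 0.37, from 0.876 to 1.66 CPM). Both had an unadjusted edgeR p under 0.05 with all libraries, which is 16.7% of the list against 10.8% of all genes tested. Each passed in 1 of the 6 fits without 1 library.

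**Figure D5:**
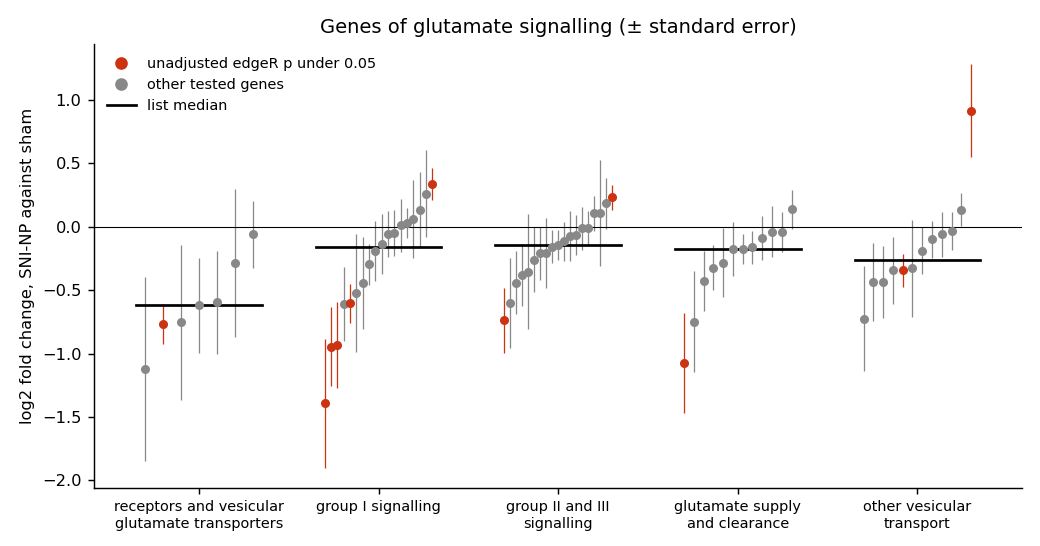
Log2 fold change (± standard error) of SNI-NP against sham rats for the tested genes of each list, in ascending order, with red points for an unadjusted edgeR p under 0.05 and black lines for list medians. In group I signalling 4 red points lie below 0 and 1 above, and *Slc17a6* is the single red point among the receptors and vesicular glutamate transporters.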

How the data were processed

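RNA-seq of spinal cord in 3 sham and 3 SNI-NP libraries was analysed. Estimated counts that were not normalized, and FPKM for the same genes, were deposited by the authors. Of the genes with a count, 11.5% had one that was not whole, and 0 of the 8 genes described did. The reads were mapped to the release called Rat6 and unique sequences kept. The submitters' processing notes name FastQC, STAR and HTSeq, and the use of strand is not given in the sources used here. Counts were rounded, filtered with filterByExpr (14426 of 22050 genes left), scaled by TMM and tested with edgeR version 4.0.16 (quasi-likelihood, condition as the single term) in R version 4.3.3, with Benjamini-Hochberg adjustment over all genes tested. The common biological coefficient of variation was 0.223. Standard errors were taken from the fold change and the test statistic, and log2 values for correlations carry a prior count of 2. Alternatives were DESeq2 version 1.42.0, RLE and upper-quartile factors, no filter, at least 10 counts in every library, a block for the replicate number, offsets from a loess curve (span 0.5) of each library on transcript length alone or together with that block, limma version 3.58.1 on log2 of the deposited FPKM plus 0.1 or 1, and leaving out each library. The scripts were tested on simulated counts. The genes and the lists were chosen with earlier results of these data known. Named genes are those examined and *Grm6*, and in each pathway list those with an unadjusted p under 0.05 or among the 2 smallest, plus the 5 genes most alike to the leading receptor and transporter. *Sv2b* and *Prrxl1* of the lists were not analysed here, and some other genes of the lists are not reported here.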

Additional observations from a re-analysis of the deposited data

How the results depend on the processing

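Depth limited *Slc17a8*, *Grm6* and *Grm2*, which had 0 to 24 counts in a library. It also limited *Grm5*, which had 7 counts in SNI-NP replicate 2. *Grm2* and *Grm5* were not tested in the fit that asked for at least 10 counts in every library. Of the genes examined, 0 passed the adjusted threshold with edgeR or limma under any alternative, and 1, *Slc17a6*, passed with DESeq2. The number with an unadjusted p under 0.05 was 1, and 3 with the replicate block, 2 with length offsets and the block, 3 with the ganglion covariate, and from 1 to 4 when 1 library was left out. Of all 14426 genes tested, 1565 passed that threshold in the main fit and 1319 with the replicate block. With length offsets and the block 1561 passed, and with the ganglion covariate 2219. Over all genes the adjusted count of 0 became 210 with DESeq2, 2 with limma at either pseudocount, 201 with the ganglion covariate and from 0 to 222 without 1 library, being 222 without SNI-NP replicate 1 and 2 when sham replicate 2 was left out. At an unadjusted p under 0.05 it was 1565, and from 908 to 2134 without 1 library, with 908 without sham replicate 1, 1019 without sham replicate 3, and 917 when SNI-NP replicate 3 was left out. With length offsets 64.9% of these calls were higher, against 45.2%. Of the 61 pathway genes, 2 (*Plcb1* and *Plcb4*) passed the adjusted threshold with the ganglion covariate. The unadjusted count of 10 ran from 2 to 19, with 2 without sham replicate 1, 19 without sham replicate 2, 4 without sham replicate 3, and 3 when SNI-NP replicate 3 was left out. Directions turned for *Slc17a7* (from -0.85 to 0.15 with 1 library left out, above 0 without SNI-NP replicate 1 and, at 0.11, when sham replicate 3 was left out), *Grm7* (from -0.30 to 0.17, above 0 without SNI-NP replicate 1), and, with the inhibitory neuron covariate, *Grm2* (0.013). The cause was not tested. Replicate numbers gave no pairing: deviations of same-numbered libraries correlated at 0.214, -0.143 and 0.0538, and 2 of 6 libraries correlated best with their own number. TPM in place of FPKM left the shares the same within 1 SD (*Slc17a6* 36.2% of VGLUT, *Grm7* 42.1% against 42.4% of the receptors).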

Other observations

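The deposited counts and FPKM values together give the gene length that was used in each library. For *Slc17a7*, *Slc17a6* and *Grm7* the largest was at most 1.0015 times the smallest over the 6 libraries. For *Grm8* it was 3.50, 3.53 and 3.69 kb in sham and 2.99, 2.99 and 3.30 kb in SNI-NP replicates 1, 2 and 3, without overlap between the groups. Of the 1212 genes whose largest length exceeded the smallest by more than 5%, 6.02% had all SNI-NP lengths below all sham lengths and 5.61% all above. The largest length of *Grm8* was 1.24 times the smallest, and 1.58% of the 12935 genes with an FPKM of at least 0.5 in every library had a ratio as large. For *Grm3* the ratio was 1.053, with 3.21 kb in sham replicate 1 and 3.38 kb in SNI-NP replicate 1. *Grm8* was picked after its values were seen, and its counts were low (32 to 95).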
